A study of Mus musculus with 9 samples.

Results

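The 34 genes described here encode the machinery that takes up glucose, breaks it down to pyruvate, and turns pyruvate into lactate or passes it to the mitochondria. They were chosen by name from the 46078 identifiers in the count data, with earlier results of these data known. Shares of all genes tested, given beside their counts, are thus not an unbiased contrast. The 34 genes comprise glucose transporters (Slc2a1, Slc2a3), hexokinases (Hk1, Hk2, Hk3), the enzymes of each later step up to pyruvate kinase with their isozymes, the bifunctional regulators Pfkfb1 to Pfkfb4, lactate dehydrogenases (Ldha, Ldhb), pyruvate dehydrogenase kinases (Pdk1 to Pdk4), subunits of pyruvate dehydrogenase (Pdha1, Pdhb) and monocarboxylate transporters (Slc16a1, Slc16a3). All 34 passed the expression filter in each of the 3 comparisons between time points, so every count of these genes is out of 34.

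Glycolysis splits glucose into pyruvate in the cytosol. Lactate dehydrogenase reduces pyruvate to lactate, which leaves or enters the cell through monocarboxylate transporters, whereas pyruvate dehydrogenase commits pyruvate to the tricarboxylic acid cycle and is switched off by its kinases. In the testis, spermatogonia at the base of the seminiferous tubule are known as users of glucose, and Sertoli cells supply later germ cells with lactate. Many of these genes are textbook targets of the hypoxia-inducible factors (HIF) and of MYC.

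The libraries came from EGFP-SSCs, a mouse spermatogonial stem cell line of genotype WT that carries a green fluorescent protein, with 3 biological replicates per time point (0 h, 24 h, 48 h). Cells of the 0 h group grew under normal culture on mitomycin C-treated mouse embryonic fibroblasts, in StemPro-34 medium with GDNF, FGF and EGF and with added glucose, pyruvic acid and lactic acid. Cells of the 24 h and 48 h groups were mixed at a ratio of 1:1 with somatic cells from testes of busulfan-treated mice 3 to 7 days after birth, in α-MEM with serum replacement, BMP-4/7, retinoic acid, activin A, testosterone, FSH and bovine pituitary extract, and were then sorted for EGFP. Whether cells of the 0 h group were also sorted, away from their feeder fibroblasts, is not clear from the sources used here, and the part of feeder RNA in the 0 h values was not tested. Time, medium and partner cells changed together and cannot be told apart, all libraries come from 1 line, and since nothing says that replicates were separate cultures, p-values measure only the spread between these samples.

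Library totals ran from 16825251 to 22201892 counts. The summed level of 8 germ cell markers, among them Ddx4 and Dazl, was 1422 to 2779.9 CPM (counts scaled to library size and normalised over all 9 libraries) at 0 h, 1730.5 to 2061 CPM at 24 h and 1923 to 2323 CPM at 48 h. Dazl, the highest of them on average, was spread widely at 0 h (1350, 830 and 421 CPM). Of the 8, Sycp3 alone was called higher at 48 h relative to 0 h, Sycp3 and Rnf17 were called higher between 24 h and 48 h, and 0 were called lower. Markers of somatic cells moved with time. The summed level of 10 stromal and fibroblast markers was 336 to 428 CPM at 0 h and 2974 to 3294 CPM at 48 h, with 6 of them called higher and 2, Thy1 and Twist1, called lower. That of 6 myoid markers was 13.7 to 15.6 CPM and 263 to 321 CPM (5 called higher), that of 10 Sertoli markers 21.7 to 22.7 CPM and 74.3 to 78.3 CPM (7 called higher and 1, Rhox5, lower) and that of 7 Leydig markers 4.48 to 6.84 CPM and 25.4 to 32.5 CPM (3 called higher of 3 tested). In contrast, 5 endothelial markers summed to 43.3 to 47.2 CPM at 0 h and 12.3 to 12.8 CPM at 48 h (4 tested, 2 called lower and 1, Tek, higher). The sum of 6 macrophage markers was 15.5 to 18.3 CPM and 6.33 to 9.26 CPM (3 tested, 1 called lower). Most of the endothelial sum at 0 h came from Kdr (mean 24.6 CPM) and Pecam1 (15.7 CPM), and most of the macrophage sum from Cd68 (15.7 CPM). These 3 genes were those called lower, so the sums do not describe each list as a whole. Csf1r of macrophages was called higher at 24 h. Some markers reached no more than 3 counts in any library of 0 h. They were Dhh (Sertoli), Actg2 (myoid), Hsd3b1, Insl3, Lhcgr and Hsd17b3 (Leydig), Emcn (endothelial), and Adgre1 and Cx3cr1 (macrophage). Lhcgr and Cx3cr1 stayed there in every library. The other markers of these lists were counted at 0 h, with up to 225 counts in a library for Sox9, 108 for Des and 120 for Star. At 24 h, 7 Sertoli markers were called higher and 3 (Sox9, Rhox5 and Gata1) lower. The part of these other cells in the results for glycolysis genes was not tested. In bulk RNA, fewer cells of a type and less RNA per cell cannot be told apart.

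Most glycolysis and lactate genes were expressed at a lower level after co-culture. Their summed level was 10177, 11568 and 13949 CPM in the 0 h libraries, 4885, 4984 and 5801 CPM at 24 h and 3674, 3607 and 3644 CPM at 48 h. The 3 groups did not overlap, and each later group lay below the one before. Within 0 h the sum rose from replicate 1 to replicate 3, the order in which Dazl fell, and the source of this spread was not tested. As a share of all counts, the genes took 1.13% ± 0.171 of the 0 h libraries (mean ± SD, n = 3), 0.539% ± 0.0395 of those of 24 h and 0.372% ± 0.00535 of those of 48 h. The summed CPM was thus 2.28-fold lower at 24 h and 3.27-fold lower at 48 h than at 0 h.

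Differential expression was tested with edgeR's quasi-likelihood test on all genes, and a gene was called at an adjusted p of up to 0.05. At 24 h relative to 0 h, 24 of the 34 genes were called lower and 0 higher, where 14.2% of all genes tested were called lower, 11.4% higher and 25.5% either way. At an unadjusted p under 0.05, 1 was higher, and DESeq2 called 23 lower and 0 higher, where it called 21.0% of all genes either way. At 48 h relative to 0 h, 25 were called lower and 1, Pdk4, higher, beside 18.5% and 13.0% of all genes (31.6% either way). Between 24 h and 48 h, 20 were called lower and 2 (Pdk4 and Pdha1) higher, beside 12.7% and 8.61% of all genes (21.3% either way). Measured from 0 h, the median log2 fold change of the 34 genes was -0.70 by 24 h and -1.13 by 48 h, and over the second 24 h it was -0.48, where the medians over all genes tested were 0.01, 0.02 and -0.00. A fall of at least 2-fold that was also called was seen for 13 genes at 24 h (7.64% of all genes), 21 at 48 h (10.0%) and 6 between 24 h and 48 h (1.81%). The libraries did not overlap, with the later group lower, for 24 genes at 24 h (22.2% of all genes), 28 at 48 h (25.4%) and 21 between 24 h and 48 h (21.0%). The comparisons of 24 h and of 48 h with 0 h share the same 0 h libraries and are not independent of each other.

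**Figure D1:**
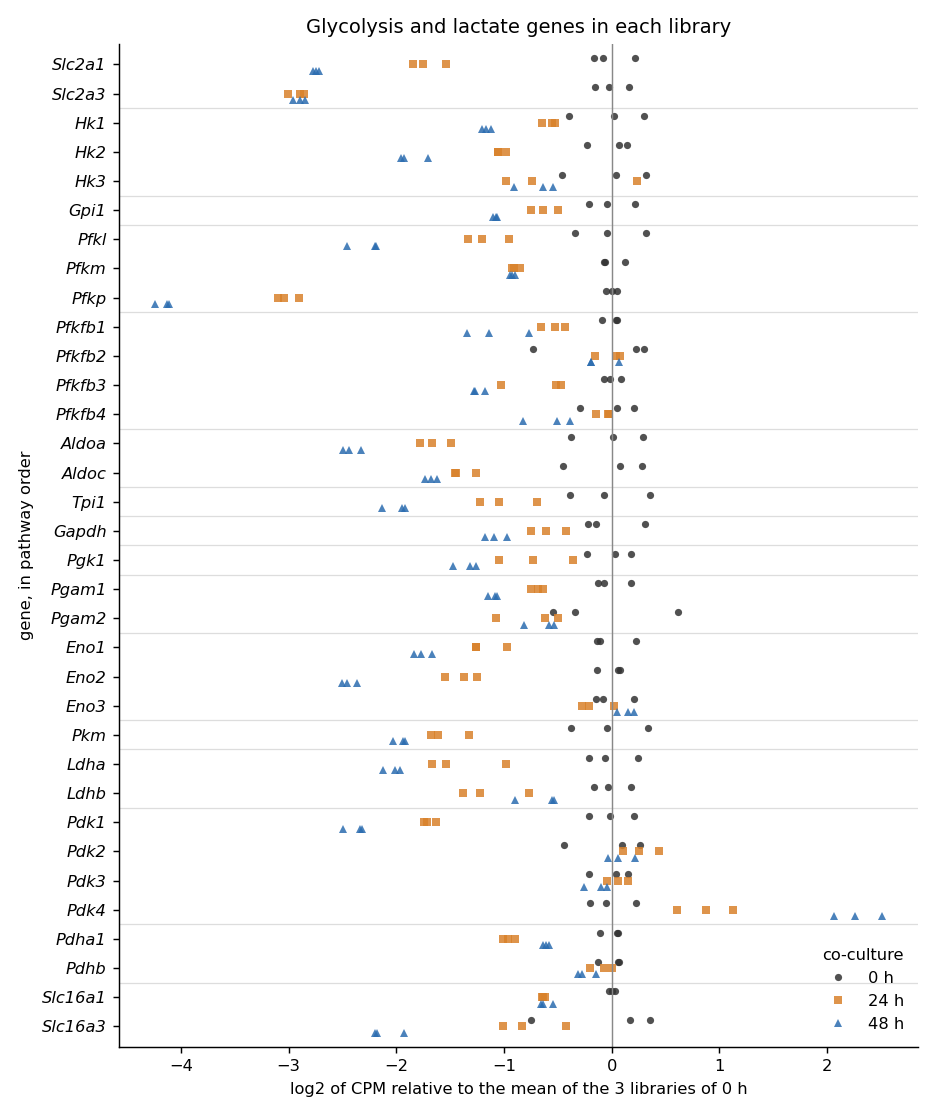
Level of each of the 34 genes in each of the 9 libraries, as log2 of CPM relative to the mean of the 3 libraries of 0 h, in pathway order from glucose uptake to lactate transport. Black circles are 0 h, orange squares 24 h and blue triangles 48 h. Most genes step to the left from 0 h to 24 h and again to 48 h, Slc2a3, Pfkm and Slc16a1 stay at their 24 h level, and Pdk4 alone moves far to the right.

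Promoters were examined because these genes fell together. For 33 of the 34 genes, RefSeq windows of 300 bases (250 before to 50 after the annotated start, build GRCm38.p6) were at hand. None was for Slc2a3. The 33 genes had 52 windows. A gene, here and among all genes, counted as holding a motif if any of its windows did, so genes with more windows had more scope. The windows were searched on both strands for ACGTG and GCGTG, which form the core of the HIF binding site, and for CACGTG, the E-box bound by MYC and other helix-loop-helix factors, which contains ACGTG on each strand. ACGTG was present for 19 of 33 genes (57.6%), compared with 28.2% of 12258 tested genes that have a window and 21.8% of all 27025 genes with a window. Either core was present for 29 of 33 (87.9%), compared with 65.0% of tested genes and 46.7% of all genes, and CACGTG for 6 (18.2%), compared with 11.4% and 8.09%. Among the 24 genes with a window that were lower at 48 h, 14 held ACGTG and 21 either core, and among the 9 that were not lower, 5 and 8 did. A match describes the letters in a window and is not a binding site. Sequences are shown for a window of Ldha, of Pgk1 and of Pfkp, the gene that fell most. The Ldha window held 5 matches to ACGTG (each E-box counts once per strand), that of Pgk1 2, and that of Pfkp 4 matches to GCGTG. Another Ldha window (chr7:46846832-46847131), not shown, held 0 matches to ACGTG and 2 to GCGTG. Capitals mark the cores on either strand (CACGT and CACGC are the cores read from the other strand), and runs of CACGTG are E-boxes. They lie at chr7:46845554-46845853 (plus strand) for Ldha, chrX:106186850-106187149 (plus strand) for Pgk1 and chr13:6648722-6649021 (minus strand) for Pfkp.
Ldha: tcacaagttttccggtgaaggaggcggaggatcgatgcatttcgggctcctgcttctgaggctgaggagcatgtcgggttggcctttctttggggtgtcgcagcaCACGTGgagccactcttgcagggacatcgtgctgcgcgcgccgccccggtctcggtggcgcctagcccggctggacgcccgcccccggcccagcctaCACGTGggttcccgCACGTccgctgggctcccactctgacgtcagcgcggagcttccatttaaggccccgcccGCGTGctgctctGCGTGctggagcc
Pgk1: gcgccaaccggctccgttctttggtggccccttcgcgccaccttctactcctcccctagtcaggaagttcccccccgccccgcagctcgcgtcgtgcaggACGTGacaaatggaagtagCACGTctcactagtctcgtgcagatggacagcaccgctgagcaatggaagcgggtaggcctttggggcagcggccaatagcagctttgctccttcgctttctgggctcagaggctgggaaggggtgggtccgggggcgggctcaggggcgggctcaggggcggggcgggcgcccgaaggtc
Pfkp: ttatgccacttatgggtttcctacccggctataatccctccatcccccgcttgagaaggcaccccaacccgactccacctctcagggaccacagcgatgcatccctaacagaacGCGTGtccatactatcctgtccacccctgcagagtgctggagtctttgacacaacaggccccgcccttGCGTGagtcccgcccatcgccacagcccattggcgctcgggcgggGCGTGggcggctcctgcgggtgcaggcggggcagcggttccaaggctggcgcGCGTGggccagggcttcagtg

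Both glucose transporter genes fell. Slc2a1 encodes the basal glucose transporter GLUT1 (chr4:119108711-119137983, GRCm38) and gave 394, 418 and 511 CPM in the 0 h libraries, 123, 131 and 152 CPM at 24 h, and 64.6, 65.8 and 67.0 CPM at 48 h. Every 24 h library lay below every 0 h library, and every 48 h library below every 24 h library. Its log2 fold change from 0 h was -1.69 ± 0.14 (SE, adjusted p = 0.00018) at 24 h and -2.75 ± 0.13 (adjusted p = 1.61e-05) at 48 h. It fell again by 1.05 on the log2 scale between 24 h and 48 h (adjusted p = 0.000155). Slc2a3 encodes the high-affinity transporter GLUT3 (chr6:122727809-122801640) and gave 442, 484 and 549 CPM in the 0 h libraries, 61.1, 67.8 and 66.1 CPM at 24 h, and 63.0, 66.1 and 68.3 CPM at 48 h. Its drop was complete by 24 h, and the libraries of 24 h and 48 h overlapped. The log2 fold changes from 0 h were -2.91 ± 0.12 (SE, adjusted p = 1.57e-05) at 24 h and -2.90 ± 0.12 (adjusted p = 1.11e-05) at 48 h, whereas that between 24 h and 48 h was 0.01 ± 0.07 (adjusted p = 0.952).

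Hexokinases, which trap glucose as glucose 6-phosphate, differed in size of change. Hk2, the inducible isozyme, gave 334, 409 and 431 CPM in the 0 h libraries, 188, 188 and 198 CPM at 24 h, and 102, 120.0 and 101 CPM at 48 h. No library of a later time point reached those of the time point before, and its log2 fold change was -1.02 ± 0.12 (SE, adjusted p = 0.000895) at 24 h and -1.86 ± 0.14 (adjusted p = 9.52e-05) at 48 h. Hk1, the widely expressed isozyme, gave 122, 164 and 198 CPM in the 0 h libraries, 109, 103 and 112 CPM at 24 h, and 74.2, 71.9 and 70.0 CPM at 48 h. It was lower in every 24 h library than in any 0 h library, but narrowly, with log2 fold changes of -0.56 ± 0.17 (SE, adjusted p = 0.0497) at 24 h and -1.16 ± 0.17 (adjusted p = 0.00233) at 48 h. The 24 h call of Hk1 was lost when any library but 0 h replicate 1 was left out (adjusted p = 0.0697 to 0.171), as well as with library size alone, with DESeq2's size factors and with at least 10 counts in every library (adjusted p = 0.0525 to 0.093). Hk3 was low, at 0.785 to 1.93 CPM over the 9 libraries, and was not called in any comparison. Gpi1, glucose phosphate isomerase, gave 868, 975 and 1164 CPM in the 0 h libraries, 644, 598 and 711 CPM at 24 h, and 479.6, 468 and 477 CPM at 48 h. These groups were separate, and its log2 fold change was -0.61 ± 0.14 (SE, adjusted p = 0.0162) at 24 h and -1.08 ± 0.13 (adjusted p = 0.000795) at 48 h. Without 0 h replicate 2, 24 h replicate 1 or 24 h replicate 2 its 24 h call was lost (adjusted p = 0.0575 to 0.0846). As 27.3% of the Gpi1 transcript matches Gm1840, its counts are uncertain.

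Phosphofructokinase 1 commits sugar to glycolysis, and its platelet-type isozyme Pfkp showed the largest fall of the 34 genes. Pfkp (chr13:6579768-6648777, the minus-strand promoter shown above) gave 407, 421 and 392 CPM in the 0 h libraries, 47.5, 49.4 and 54.3 CPM at 24 h, and 21.6, 23.3 and 23.6 CPM at 48 h. It was 8.0-fold lower at 24 h and 17.8-fold lower at 48 h, with log2 fold changes of -3.00 ± 0.10 (SE, adjusted p = 8.44e-06) at 24 h and -4.16 ± 0.11 (adjusted p = 4.05e-06) at 48 h. The liver-type isozyme Pfkl gave 147, 180.5 and 232 CPM in the 0 h libraries, 73.8, 80.7 and 96.5 CPM at 24 h, and 40.5, 40.9 and 34.0 CPM at 48 h. Its groups were separate at each step, with log2 fold changes of -1.15 ± 0.18 (SE, adjusted p = 0.00366) at 24 h and -2.28 ± 0.19 (adjusted p = 0.000151) at 48 h. The muscle-type isozyme Pfkm gave 24.9, 25.0 and 28.5 CPM in the 0 h libraries, 13.8, 14.5 and 13.9 CPM at 24 h, and 13.6, 14.0 and 13.7 CPM at 48 h. It stepped down once, as its 24 h and 48 h libraries overlapped. The log2 fold changes were -0.88 ± 0.12 (SE, adjusted p = 0.00174) at 24 h and -0.92 ± 0.12 (adjusted p = 0.00107) at 48 h, and -0.04 ± 0.09 (adjusted p = 0.787) between 24 h and 48 h.

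The bifunctional enzymes Pfkfb1 to Pfkfb4 make and break fructose 2,6-bisphosphate, the activator of phosphofructokinase 1. Pfkfb3, the isozyme with the highest kinase activity, gave 33.4, 37.1 and 34.7 CPM in the 0 h libraries, 17.2, 24.5 and 25.4 CPM at 24 h, and 14.5, 15.5 and 14.5 CPM at 48 h. Its 3 groups were separate, with log2 fold changes of -0.64 ± 0.16 (SE, adjusted p = 0.0236) at 24 h and -1.24 ± 0.11 (adjusted p = 0.000203) at 48 h. The 24 h call was lost without 0 h replicate 2, 24 h replicate 1 or 24 h replicate 2 (adjusted p = 0.063 to 0.0907), and the call between 24 h and 48 h (-0.60 ± 0.14, adjusted p = 0.0168) without 24 h replicate 2 or 3 or 48 h replicate 1 or 3 (adjusted p = 0.0545 to 0.067). The other members of the family were low, at 3.85 to 15.1 CPM. Pfkfb1 was called lower at 48 h (-1.07 ± 0.20, adjusted p = 0.00572) and also at 24 h (-0.52 ± 0.16, adjusted p = 0.0447), where the call was lost with any 1 of the 6 libraries left out (adjusted p = 0.0612 to 0.156) and under 5 of 8 other alternatives (adjusted p = 0.0522 to 0.121). Pfkfb2 was not called, and Pfkfb4 was called lower only between 24 h and 48 h (-0.50 ± 0.15, adjusted p = 0.0425), a call lost without any library but 48 h replicate 2 (adjusted p = 0.0709 to 0.12) and under 5 of 8 other alternatives (adjusted p = 0.0501 to 0.144). Without 0 h replicate 1, Pfkfb4 was called lower at 48 h relative to 0 h (-0.68, adjusted p = 0.0315), and without 48 h replicate 1, Pfkfb1 was called lower between 24 h and 48 h (-0.69, adjusted p = 0.0477). The former was also called with all 9 libraries in 1 fit (-0.56, adjusted p = 0.0302), and the latter with no filter (-0.54, adjusted p = 0.0312) and with offsets for GC content and length (-0.60, adjusted p = 0.0449).

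Aldolase and triose phosphate isomerase split fructose bisphosphate and interconvert its products. Aldoa, the main aldolase of most tissues, gave 1276, 1671 and 2020.0 CPM in the 0 h libraries, 480.5, 519 and 589.8 CPM at 24 h, and 306, 294 and 329 CPM at 48 h. The groups did not overlap, and it was 3.10-fold lower at 24 h and 5.35-fold lower at 48 h. Its log2 fold change was -1.63 ± 0.18 (SE, adjusted p = 0.000681) at 24 h and -2.42 ± 0.18 (adjusted p = 8.93e-05) at 48 h. Aldoc, the brain-type aldolase, gave 101, 147 and 168 CPM in the 0 h libraries, 50.5, 51.0 and 58.0 CPM at 24 h, and 45.0, 41.6 and 43.3 CPM at 48 h. Most of its fall came in the first 24 h, with log2 fold changes of -1.37 ± 0.19 (SE, adjusted p = 0.00179) at 24 h and -1.68 ± 0.19 (adjusted p = 0.000585) at 48 h. Between 24 h and 48 h it was -0.31 ± 0.08 (adjusted p = 0.0241), a call lost without 24 h replicate 3, 48 h replicate 1 or 48 h replicate 3 (adjusted p = 0.0617 to 0.0868) and with offsets for GC content and length (adjusted p = 0.0647). Tpi1, triose phosphate isomerase, gave 207, 258 and 347 CPM in the 0 h libraries, 116, 131 and 167 CPM at 24 h, and 70.3, 61.6 and 71.2 CPM at 48 h. Its groups were separate, with log2 fold changes of -0.96 ± 0.21 (SE, adjusted p = 0.0141) at 24 h and -2.00 ± 0.19 (adjusted p = 0.00032) at 48 h. Without 24 h replicate 1 or 2 its 24 h call was lost (adjusted p = 0.0677 to 0.0687). Of the Tpi1 transcript, 19.3% matches Tpi-rs11.

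The steps that follow yield the first ATP and had smaller log2 fold changes than aldolase and triose phosphate isomerase. Gapdh, glyceraldehyde 3-phosphate dehydrogenase and a common reference gene for RNA measurements, gave 209.5, 199.9 and 288 CPM in the 0 h libraries, 138, 152 and 173 CPM at 24 h, and 119, 103 and 109 CPM at 48 h. It was lower in each 24 h library than in any 0 h library and lower again at 48 h, with log2 fold changes of -0.58 ± 0.16 (SE, adjusted p = 0.0377) at 24 h and -1.08 ± 0.16 (adjusted p = 0.00218) at 48 h. The 24 h call was lost without 0 h replicate 2 or any 1 of the 24 h libraries (adjusted p = 0.0543 to 0.15) and with library size alone (adjusted p = 0.0668), and 35.7% of its transcript matches 92 other genes. Pgk1, phosphoglycerate kinase, whose promoter is shown above, gave 192, 229 and 254 CPM in the 0 h libraries, 109, 136 and 176 CPM at 24 h, and 93.5, 80.8 and 90.2 CPM at 48 h. Its groups were separate as well, with log2 fold changes of -0.67 ± 0.18 (SE, adjusted p = 0.0335) at 24 h and -1.35 ± 0.13 (adjusted p = 0.000309) at 48 h. Leaving out 0 h replicate 2 or 3 or 24 h replicate 1 or 2 ended its 24 h call (adjusted p = 0.0586 to 0.124), as did library size alone (adjusted p = 0.0546), and 68.8% of its transcript matches Pgk1-rs7. Pgam1, phosphoglycerate mutase, gave 844, 879.9 and 1044 CPM in the 0 h libraries, 548, 573 and 594 CPM at 24 h, and 434, 440.0 and 415 CPM at 48 h. It was separate between all time points, with log2 fold changes of -0.68 ± 0.12 (SE, adjusted p = 0.005) at 24 h and -1.10 ± 0.12 (adjusted p = 0.000467) at 48 h. Pgam2, its muscle counterpart, stayed at 0.927 to 2.99 CPM and was not called. Pgam1-ps2 matches 43.1% of the Pgam1 transcript.

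Enolase and pyruvate kinase complete the path to pyruvate. Eno1, the enolase of most tissues, gave 1430.0, 1403 and 1805 CPM in the 0 h libraries, 645, 646 and 788 CPM at 24 h, and 454, 434 and 486 CPM at 48 h. Groups did not overlap, with log2 fold changes of -1.15 ± 0.15 (SE, adjusted p = 0.00133) at 24 h and -1.76 ± 0.13 (adjusted p = 0.000106) at 48 h. As 85.6% of the Eno1 transcript matches Eno1b, reads of these genes cannot be told apart with certainty. Eno2, the neuronal isozyme, gave 24.9, 25.1 and 21.7 CPM in the 0 h libraries, 8.2, 10.0 and 9.22 CPM at 24 h, and 4.34, 4.21 and 4.65 CPM at 48 h. Again no groups overlapped, and its log2 fold change was -1.37 ± 0.14 (SE, adjusted p = 0.000453) at 24 h and -2.44 ± 0.14 (adjusted p = 3.02e-05) at 48 h. Eno3, the muscle isozyme, lay at 10.8 to 15.1 CPM in every library and was not called, with log2 fold changes of -0.13 ± 0.16 (SE, adjusted p = 0.605) at 24 h and 0.14 ± 0.15 (adjusted p = 0.526) at 48 h. Pkm, pyruvate kinase, gave 1820.0, 2297 and 2985 CPM in the 0 h libraries, 775, 741 and 944 CPM at 24 h, and 625, 617 and 580.0 CPM at 48 h. It was 2.86-fold lower at 24 h and 3.90-fold lower at 48 h. Its log2 fold change was -1.52 ± 0.20 (SE, adjusted p = 0.00147) at 24 h and -1.96 ± 0.18 (adjusted p = 0.000286) at 48 h, and -0.44 ± 0.09 (adjusted p = 0.00928) between 24 h and 48 h, where offsets for GC content and length ended the call (adjusted p = 0.0876). The counts do not separate its splice forms PKM1 and PKM2, and 65.5% of the transcript matches Gm6560.

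Genes for the production and transport of lactate fell as well. Ldha, whose subunit favours making lactate and whose promoter window shown above held 5 ACGTG matches, gave 402, 447 and 551 CPM in the 0 h libraries, 147, 161 and 236 CPM at 24 h, and 119, 107 and 116 CPM at 48 h. Its groups were separate, and its log2 fold change was -1.35 ± 0.20 (SE, adjusted p = 0.00266) at 24 h and -2.03 ± 0.14 (adjusted p = 6.6e-05) at 48 h. Ldhb, whose subunit favours the return of lactate to pyruvate, gave 13.0, 10.2 and 11.2 CPM in the 0 h libraries, 4.42, 4.92 and 6.74 CPM at 24 h, and 7.79, 6.17 and 7.89 CPM at 48 h. It reached its lowest level at 24 h, and the libraries of 24 h and 48 h overlapped. For Ldhb the log2 fold changes were -1.09 ± 0.21 (SE, adjusted p = 0.00799) at 24 h and -0.66 ± 0.18 (adjusted p = 0.0265) at 48 h. The 48 h call was lost without any 1 of the 48 h libraries (adjusted p = 0.066 to 0.0966) or with offsets for GC content and length (adjusted p = 0.0652), and without 24 h replicate 3 it was called higher at 48 h than at 24 h (0.65, adjusted p = 0.049). Of the Ldhb transcript, 76.8% matches Gm5514. Slc16a1 encodes the transporter MCT1, which moves lactate in both directions, and gave 225, 220.1 and 216 CPM in the 0 h libraries, 141, 144 and 141 CPM at 24 h, and 142, 151 and 139 CPM at 48 h. It stepped down once and stayed, with log2 fold changes of -0.62 ± 0.09 (SE, adjusted p = 0.00242) at 24 h and -0.61 ± 0.09 (adjusted p = 0.00252) at 48 h and 0.01 ± 0.06 (adjusted p = 0.934) between 24 h and 48 h. Slc16a3 encodes MCT4, known for lactate export from glycolytic cells, and gave 71.7, 136 and 155 CPM in the 0 h libraries, 60.2, 67.9 and 90.3 CPM at 24 h, and 31.8, 26.8 and 26.3 CPM at 48 h. The 0 h libraries were spread widely and overlapped with those of 24 h, whereas those of 48 h lay below both. The log2 fold change of Slc16a3 was -0.72 ± 0.28 (SE, adjusted p = 0.108) at 24 h and -2.10 ± 0.28 (adjusted p = 0.00131) at 48 h, and -1.38 ± 0.15 (adjusted p = 0.000468) between 24 h and 48 h. Without 0 h replicate 1, the lowest of the 0 h libraries, it was called lower at 24 h (-0.98, adjusted p = 0.00492), as it was with no filter (-0.73, adjusted p = 0.0484).

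At the entry to the mitochondria the genes split. Pdk1, the kinase of pyruvate dehydrogenase best known as a hypoxia target, gave 200.2, 172 and 150.2 CPM in the 0 h libraries, 52.1, 52.8 and 56.1 CPM at 24 h, and 30.9, 34.8 and 34.5 CPM at 48 h. It fell at each step, with log2 fold changes of -1.68 ± 0.13 (SE, adjusted p = 0.000155) at 24 h and -2.38 ± 0.14 (adjusted p = 3.92e-05) at 48 h. Pdk4, the kinase known to rise in starvation, was the only gene of the 34 called higher at 48 h relative to 0 h. It gave 0.810, 1.09 and 0.896 CPM in the 0 h libraries, 1.42, 2.03 and 1.71 CPM at 24 h, and 4.45, 3.91 and 5.31 CPM at 48 h. Each group lay above the one before, at a level that never passed 5.31 CPM. Its log2 fold change was 0.89 ± 0.29 (SE, adjusted p = 0.0633) at 24 h and 2.27 ± 0.25 (adjusted p = 0.000556) at 48 h, and 1.39 ± 0.22 (adjusted p = 0.00288) between 24 h and 48 h. Under 3 alternatives it was also called higher at 24 h (adjusted p = 0.0255 to 0.0418). Pdk2 and Pdk3 were not called in any comparison, but with offsets for GC content and length Pdk2 (0.37, adjusted p = 0.03) and Eno3 (0.32, adjusted p = 0.0461) were called higher at 48 h, and Eno3 also between 24 h and 48 h (0.40, adjusted p = 0.0222). Pdk3 lay at 89.8 to 119 CPM in all libraries and Pdk2 at 10.9 to 20.1 CPM. Pdha1, the catalytic E1 alpha subunit, gave 70.0, 79.0 and 78.1 CPM in the 0 h libraries, 37.7, 38.7 and 40.6 CPM at 24 h, and 49.7, 48.8 and 50.6 CPM at 48 h. It was lowest at 24 h and partly recovered, and its 3 groups did not overlap. The log2 fold change of Pdha1 was -0.94 ± 0.10 (SE, adjusted p = 0.000704) at 24 h and -0.61 ± 0.10 (adjusted p = 0.00387) at 48 h, and 0.34 ± 0.07 (adjusted p = 0.00829) between 24 h and 48 h. Pdhb, the E1 beta subunit, lay at 109 to 142 CPM and was not called. Of the Pdha1 transcript, 21.3% matches Map3k15.

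**Figure D2:**
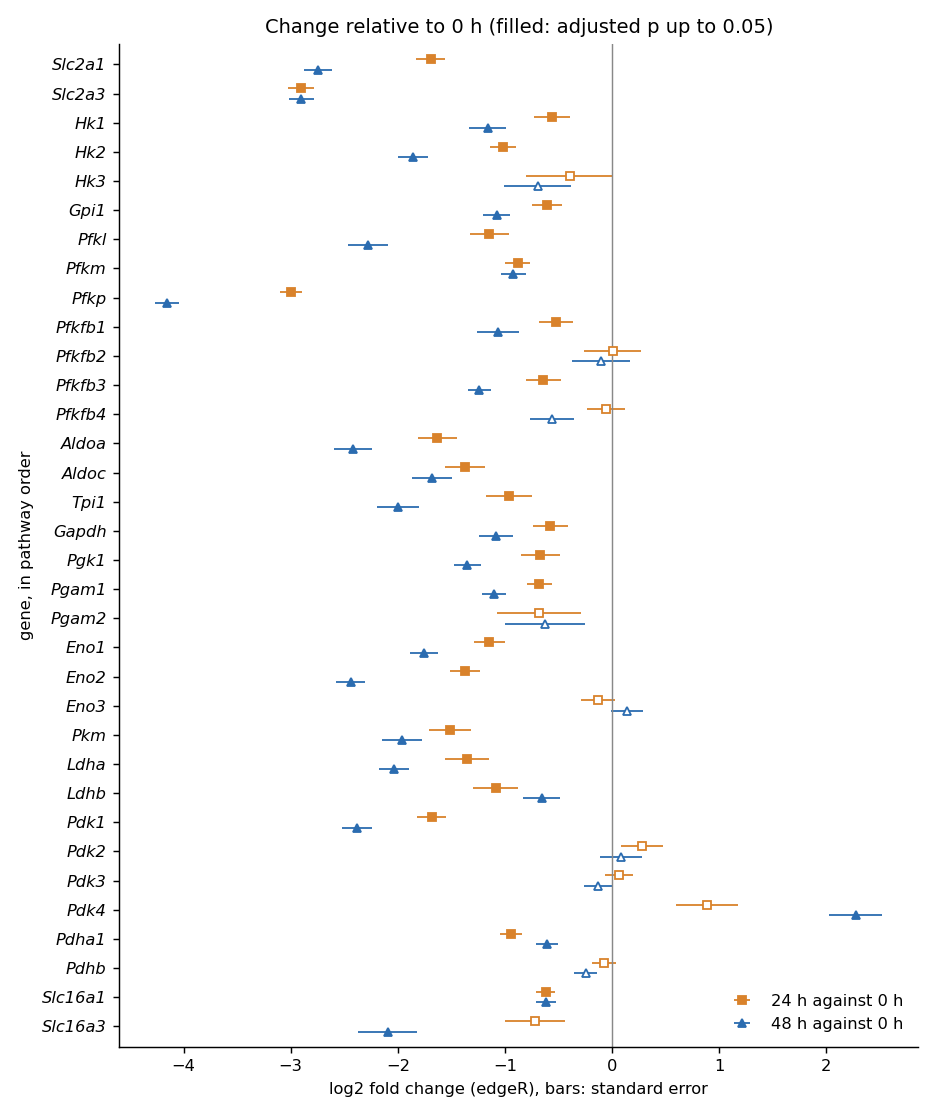
Log2 fold change of each gene at 24 h (orange squares) and at 48 h (blue triangles) relative to 0 h from edgeR, with bars of 1 standard error, in pathway order. Filled symbols have an adjusted p of up to 0.05. Pfkp reaches -4.16, Slc2a3 has both symbols at about the same place, and Pdk4 is the only filled symbol to the right of 0.

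The genes were grouped by the interval in which they were called. Of the 34, 18 were called lower in the first 24 h and lower again in the second, which 540 of 17075 genes tested in both comparisons (3.16%) also were. These 18 covered each step from glucose uptake to lactate, namely Slc2a1, Hk1, Hk2, Gpi1, Pfkl, Pfkp, Pfkfb3, Aldoa, Aldoc, Tpi1, Gapdh, Pgk1, Pgam1, Eno1, Eno2, Pkm and Ldha, together with Pdk1. With all 9 libraries in 1 fit, 11 of the 34 genes and 1.71% of all genes were lower in both intervals, and Hk1, Gpi1, Aldoc, Gapdh, Pgk1, Pkm and Ldha were no longer among them, so that the steps of glucose phosphate isomerase, glyceraldehyde 3-phosphate dehydrogenase, phosphoglycerate kinase, pyruvate kinase and lactate dehydrogenase were not covered. Without 1 of the 24 h libraries, 12 to 14 of the 34 genes were lower in both, beside 1.47% to 1.74% of all genes. Another 5 (Slc2a3, Pfkm, Pfkfb1, Ldhb and Slc16a1) were lower in the first 24 h only by the test, with the difference between the intervals not tested. Slc16a3 and Pfkfb4 were called lower only in the second 24 h, Pdha1 was lower and then higher, Pdk4 was higher in the second 24 h, and 7 (Hk3, Pfkfb2, Pgam2, Eno3, Pdk2, Pdk3 and Pdhb) were not called in any comparison. For the 25 genes lower at 48 h, a median of 61.7% of the net log2 fold change was reached by 24 h, from 34.3% for Slc16a3 to 165% for Ldhb. The 24 h libraries enter both intervals, so a low or high 24 h value moves these in opposite directions.

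Levels of isozymes can be set side by side only per transcript length, and FPKM (CPM per kilobase of exon) were summed over the isozymes of each step. The largest difference was that of glucose transporters, which summed to 194 ± 25.1 FPKM (mean ± SD, n = 3) in the 0 h libraries, to 47.5 ± 4.5 by 24 h and to 27.8 ± 0.709 by 48 h, and so were 6.95-fold lower. Phosphofructokinase 1 was 5.71-fold lower at 48 h, aldolase 5.11-fold, triose phosphate isomerase 3.99-fold, pyruvate kinase 3.90-fold, lactate dehydrogenase 3.79-fold, enolase 3.18-fold and hexokinase 3.17-fold. Phosphoglycerate kinase (2.55-fold), phosphoglycerate mutase (2.14-fold), glucose phosphate isomerase (2.11-fold), glyceraldehyde 3-phosphate dehydrogenase (2.11-fold) and monocarboxylate transporters (1.92-fold) differed less. The smallest differences were those of the bifunctional enzymes (1.79-fold), pyruvate dehydrogenase kinases (1.42-fold) and pyruvate dehydrogenase E1 (1.29-fold).

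Shares of isozymes in the summed FPKM of their step were set side by side as values. Pfkp held 46.2% ± 5.35 of phosphofructokinase 1 at 0 h, 18.4% ± 0.538 at 24 h and 14.7% ± 1.22 at 48 h. Pfkm, whose level fell least of the 3 isozymes, held 11.9% ± 0.552 at 0 h and 35.6% ± 1.61 at 48 h, when Pfkl held the largest share with 49.7% ± 2.80. The share of Slc2a3 among glucose transporters was 35.1% ± 0.864 at 0 h and 32.6% ± 0.482 at 48 h but 19.0% ± 1.36 at 24 h, its lowest value. Hk2 held 77.4% ± 1.99 of hexokinase at 0 h and 67.4% ± 2.24 at 48 h. Ldhb made up 5.03% ± 1.20 of lactate dehydrogenase at 0 h and 11.8% ± 0.893 at 48 h, and Eno3 2.50% ± 0.0785 and 8.78% ± 0.891 of enolase. Both were minor forms of their step. As 76.8% of the Ldhb transcript matches Gm5514 and 85.6% of the Eno1 transcript matches Eno1b, these shares are uncertain. Pdk1 made up 32.3% ± 3.46 of the pyruvate dehydrogenase kinases at 0 h and 8.81% ± 0.823 at 48 h, when Pdk3 held 78.3% ± 1.92 and Pdk4 2.65% ± 0.279. The share of Slc16a3 in the monocarboxylate transporters was 30.8% ± 8.65 at 0 h and 14.1% ± 1.5 at 48 h. These shares were not tested, since an exact permutation test of 3 against 3 libraries cannot go below a p of 0.10. Of the isozymes named here, the libraries of 0 h and 48 h overlapped in share only for Pfkl, at 36.8% to 47.9% and 46.5% to 51.7%.

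**Figure D3:**
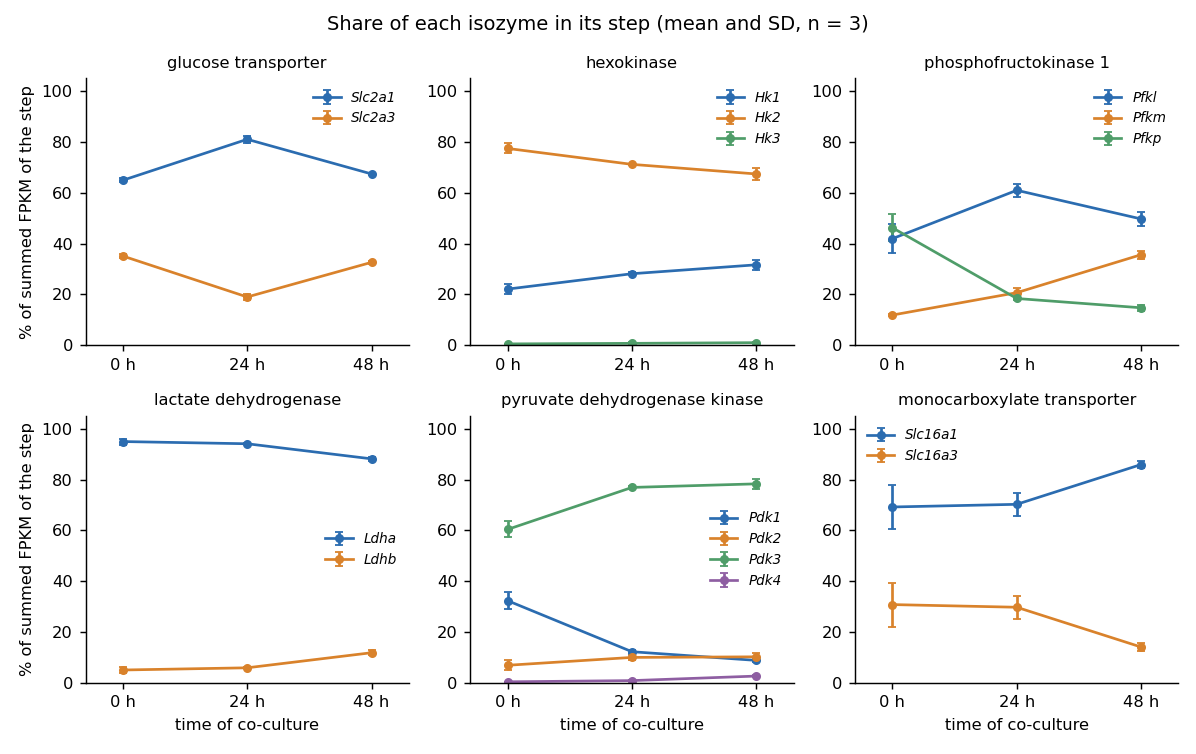
Share of each isozyme in the summed FPKM of its step, in percent, at 0 h, 24 h and 48 h for 6 steps. Points are means and bars SD of 3 libraries. Pfkp goes from 46.2% to 14.7% of phosphofructokinase 1 and Pfkm from 11.9% to 35.6%, Pdk1 goes from 32.3% to 8.81% of the kinases of pyruvate dehydrogenase, and Slc2a3 is lowest at 24 h.

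Neighbouring pathways were read off the same fits, and their counts stand beside all genes tested, of which 14.2% were lower and 11.4% higher at 24 h and 18.5% and 13.0% at 48 h. These lists, too, were chosen with earlier results of these data known, and no difference between lists was tested. Of 19 further genes of glycolysis and lactate handling, 15 were tested at 24 h, where 1 was lower, and 16 at 48 h, where 5 were lower and 1 higher, with medians of -0.12 and -0.32. The lower gene at 24 h was Emb, embigin, a partner of monocarboxylate transporters, with log2 fold changes of -1.78 ± 0.17 (SE, adjusted p = 0.000362) at 24 h and -1.66 ± 0.17 (adjusted p = 0.000433) at 48 h. Bsg, basigin, the other such partner (-0.71 ± 0.12, adjusted p = 0.00417), was among those lower at 48 h, as were Pgm1 and Adpgk. Slc2a2, the liver glucose transporter, was called higher at 48 h (2.66 ± 0.70, adjusted p = 0.0252) at a level of 1.99 ± 1.26 CPM (mean ± SD, n = 3). Of 8 isozymes known from male germ cells, 4 were tested in each comparison. Ldhc, the testis lactate dehydrogenase, was lower at 24 h and 48 h, with log2 fold changes of -1.13 ± 0.26 (SE, adjusted p = 0.018) at 24 h and -1.20 ± 0.26 (adjusted p = 0.0108) at 48 h, at a mean of 4.91 CPM at 0 h and 2.13 CPM at 48 h. Pdha2 was lower only between 24 h and 48 h (-0.40 ± 0.10, adjusted p = 0.0202).

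Genes downstream of pyruvate came next. Of 8 mitochondrial pyruvate genes, edgeR and DESeq2 each called 0 at 24 h, where 3 had an unadjusted p under 0.05, and 1, Dlat, was lower at 48 h (-0.52 ± 0.12, adjusted p = 0.0127). Of 17 genes of the tricarboxylic acid cycle, 3 were lower and 1 higher at 24 h, and 8 were lower and 1 higher at 48 h, with a median of -0.24 at 48 h. The share lower was 17.6% at 24 h, close to that of all genes, and 47.1% at 48 h. Among them Idh3b (-0.77 ± 0.12, adjusted p = 0.00244) and Fh1 (-0.72 ± 0.12, adjusted p = 0.00385) were lower, and Suclg2 (0.42 ± 0.10, adjusted p = 0.0188) was higher. Of 7 genes of the pentose phosphate pathway, which branches off at glucose 6-phosphate, 2 were lower at both times, namely Tkt (-1.40 ± 0.14 at 48 h, adjusted p = 0.000382) and G6pdx (-0.74 ± 0.15 at 48 h, adjusted p = 0.00911), and Taldo1 was higher at 48 h (0.40 ± 0.12, adjusted p = 0.0445). Of 5 genes of the serine branch, 2 were lower at both times, Phgdh, its first enzyme (-1.53 ± 0.18 at 48 h, adjusted p = 0.000683), and Shmt2 (-0.89 ± 0.11 at 48 h, adjusted p = 0.000952). Of 7 genes of gluconeogenesis, 4 were tested. Pck2, the mitochondrial carboxykinase, was higher at both times (1.07 ± 0.17 at 24 h, adjusted p = 0.00387), and Pcx and Pck1 were lower at 48 h.

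HIF targets that do not belong to glycolysis were mostly lower too. Of 19 such genes, 18 were tested, with 9 lower and 1 (Bnip3) higher at 24 h, 14 lower at 48 h, and 15 lower between 24 h and 48 h. Their medians were -0.56, -0.98 and -0.65, beside -0.70, -1.13 and -0.48 for the glycolysis and lactate genes and 0.01, 0.02 and -0.00 for all genes. Adm, adrenomedullin, averaged 43.8 ± 4.37 CPM at 0 h and 2.08 ± 0.122 CPM at 48 h, with log2 fold changes of -3.08 ± 0.20 (SE, adjusted p = 6.71e-05) at 24 h and -4.40 ± 0.14 (adjusted p = 5.7e-06) at 48 h. Bhlhe40, a circadian repressor, averaged 173 ± 12.9 CPM and 13.4 ± 0.677 CPM, with log2 fold changes of -2.27 ± 0.14 (SE, adjusted p = 5.67e-05) at 24 h and -3.69 ± 0.12 (adjusted p = 5.7e-06) at 48 h. Ddit4, an inhibitor of mTOR, was -3.35 ± 0.29 (adjusted p = 0.000186) at 48 h and Ankrd37 -3.02 ± 0.16 (adjusted p = 2.51e-05). Vegfa was not called at 24 h (0.44 ± 0.14, adjusted p = 0.0536) and lower at 48 h (-0.91 ± 0.10, adjusted p = 0.000664). Of 18 transcription factors and other regulators of glycolysis genes, 17 were tested, and 3 were higher and 4 lower at 24 h and likewise at 48 h. Between 24 h and 48 h, 4 of these regulators were higher and 5 lower. Epas1, which encodes HIF-2 alpha, averaged 89.6 ± 9.09 CPM at 0 h, 16.8 ± 2.18 CPM at 24 h and 15.0 ± 1.21 CPM at 48 h, with log2 fold changes of -2.40 ± 0.15 (SE, adjusted p = 5.94e-05) at 24 h and -2.57 ± 0.13 (adjusted p = 2.11e-05) at 48 h. Hif1a and Myc were not called in any comparison. Hif1a was spread widely at 0 h (99.4, 76.2 and 40.0 CPM) and had a log2 fold change of 0.36 ± 0.30 (adjusted p = 0.41) at 48 h. Myc was low, at 2.21 to 3.79 CPM over the 9 libraries. Mycn was lower at 24 h (-0.67 ± 0.15, adjusted p = 0.017) and not called at 48 h (-0.05 ± 0.16, adjusted p = 0.85). It was called higher between 24 h and 48 h (0.62 ± 0.08, adjusted p = 0.000859). Txnip, an inhibitor of glucose uptake, and Trp53, which encodes p53, were lower at both times with -0.62 ± 0.09 (adjusted p = 0.00196) and -0.40 ± 0.10 (adjusted p = 0.0223) at 48 h, and Sirt6 at 48 h (-1.08 ± 0.18, adjusted p = 0.00406). Mycl (0.88 ± 0.16, adjusted p = 0.0048) and the glucose-sensing factors Mlxip (0.81 ± 0.10, adjusted p = 0.000959) and Mlxipl (0.45 ± 0.12, adjusted p = 0.0262) were higher at 48 h as well as at 24 h. These are levels of mRNA, and neither protein, enzyme activity, oxygen nor lactate was measured in these libraries.

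**Figure D4:**
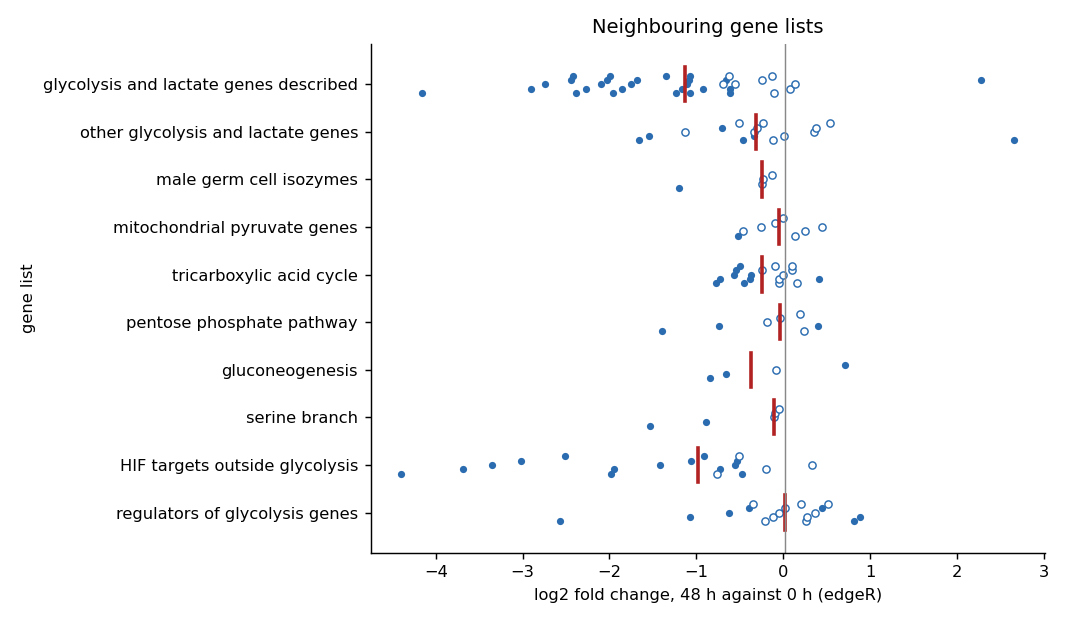
Log2 fold change at 48 h relative to 0 h (edgeR) of every tested gene in the 34 glycolysis and lactate genes and in 9 neighbouring lists. Each point is a gene, filled where the adjusted p is up to 0.05, and red bars are medians. The vertical line is the median of all genes tested. The glycolysis and lactate genes (median -1.13) and the HIF targets outside glycolysis (median -0.98) lie to the left of 0, and medians of the other lists lie between -0.37 and 0.02.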

How the data were processed

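Poly-A RNA of 9 libraries was sequenced, 3 per time point. The authors deposited raw read counts per Ensembl gene. Per the labels, the submitters' processing notes name fastp, HISAT2, featureCounts and the build GRCm38, and whether strand was used in counting, and which annotation, are not given in the sources used here. Replicates were not pooled, and the deposited counts carry no normalization. GENCODE release M21 (GRCm38) gave symbols, positions and exon lengths for 45229 of 46078 identifiers, and 849 without a match held up to 0.121% of a library's counts.

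From these counts, each comparison of the 6 libraries of 2 groups was fitted with edgeR 4.0.16 in R 4.3.3 (filterByExpr, TMM, two-sided quasi-likelihood test), with Benjamini-Hochberg adjustment over all genes tested and a threshold of 0.05. CPM were TMM-normalised over the 9 libraries, and FPKM are CPM per kilobase of the union of exons. For a trial, edgeR was run on data simulated from the 24 h and 0 h libraries with 1 spread for all genes. It recovered 95 of 200 genes changed by a log2 fold change of 1 or -1, with 4 false calls among 17549 genes. The real 24 h comparison called more genes (4494 of 17592), which loosens the cutoff. The biological coefficient of variation, a measure of spread, was 0.22 at 24 h but 0.115 between 24 h and 48 h. The share recovered thus does not carry over to these comparisons. A gene that was not called may still differ, by an amount that depends on its own standard error. Replicates of a group differed by more than sampling noise, so each library counted as 1 replicate. This difference (chi-square per degree of freedom between 2 replicates) was largest at 0 h, at 35.5 to 81.4. It was 7.97 to 13.4 at 24 h and 7.13 to 26 at 48 h. Values in every library are given for genes called in at least 1 comparison that reached 10 CPM in a group and whose groups did not overlap, and for Pdk4 in addition. From other lists, at most the 4 called genes with the largest changes are named, plus genes that a statement would otherwise leave out. The values of 1 further gene are not reported here. Lists were written from general knowledge, and the 34 genes and all lists were chosen with earlier results of these data known. BLAST 2.17.0 found the stretches that transcripts share with other genes (75-base windows, 97% identity). Tried as alternatives were the omission of each library, a replicate block, 1 fit of all 9 libraries, a minimum of 10 counts in every library or no filter at all, spline offsets for GC content and length (5 and 4 degrees of freedom), the longest transcript as length, library size alone or the size factors of DESeq2 for scaling, and DESeq2 1.42.0 itself. Plots were made in Python 3.11.15 (matplotlib 3.10.9).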

Additional observations from a re-analysis of the deposited data

How the results depend on the processing

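Of the called genes, 17 of 24 at 24 h and 25 of 26 at 48 h relative to 0 h, and 13 of 22 between 24 h and 48 h, kept their call under each of 8 alternatives and with each library left out. With library size alone, the median of all genes tested moved to 0.12 at 24 h and 0.13 at 48 h, and that of the 34 genes at 48 h to -1.02. Offsets for GC content and length gave 3 genes called higher at 48 h and a median of -0.38 between 24 h and 48 h. The number called higher at 24 h was 1 with library size alone, with at least 10 counts in every library and with all 9 libraries in 1 fit. This last fit, in which all groups have a common spread, called 14 genes (41.2%) between 24 h and 48 h and 12 of them lower, where it called 5.71% of all genes, and Hk1, Gpi1, Pfkfb4, Aldoc, Gapdh, Pgk1, Pkm and Ldha lost that call. With no filter Slc16a3 was called lower at 24 h.

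Leaving out 1 library at a time, the 34 genes had medians that ran from -0.86 to -0.67 at 24 h, from -1.22 to -0.996 at 48 h and from -0.52 to -0.41 between 24 h and 48 h. In these fits, 17 to 24 of the 34 were called lower at 24 h, 24 to 26 at 48 h and 17 to 20 between 24 h and 48 h. The share of all genes called either way was 14.4% to 33.4%, 19.0% to 38.7% and 10.4% to 24.3%, in the same order. With the replicate number as a block, 22 genes were called lower at 24 h, 24 at 48 h and 18 between 24 h and 48 h. Calls lost under it were Hk1 and Pfkfb1 at 24 h, Ldhb at 48 h and Pfkfb4 and Aldoc between 24 h and 48 h. The sources used here do not say whether samples of the same number were paired. Correlations of same-numbered deviations ran from -0.28 to 0.196. They cannot show that pairing was absent, as deviations within a group sum to 0. The block moved the share of all genes called from 25.5% to 17.1% at 24 h, from 31.6% to 22.6% at 48 h and from 21.3% to 14.3% between 24 h and 48 h, and not every library correlated best with its own number.

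Directions turned only for genes that were not called in the comparison concerned. With library size alone, Pfkfb4 was at 0.058 and Pdhb at 0.038 at 24 h, and Pfkfb2 at 0.0055 at 48 h. With all 9 libraries in 1 fit, Pfkfb2 was at -0.0078 at 24 h. With GC and length offsets, Pfkfb4 was at 0.0322 at 24 h, and Slc2a3 at -0.0523, Pfkm at 0.10 and Slc16a1 at -0.15 between 24 h and 48 h. With libraries left out, log2 fold changes at 24 h ran from -0.22 to 0.0095 for Eno3, -0.0355 to 0.16 for Pdk3, -0.23 to 0.19 for Pfkfb2 and -0.18 to 0.0829 for Pfkfb4, those at 48 h from -0.0934 to 0.26 for Pdk2 and -0.34 to 0.0775 for Pfkfb2, and those between 24 h and 48 h from -0.52 to 0.15 for Hk3, -0.0773 to 0.18 for Pgam2, -0.0254 to 0.0405 for Slc16a1 and -0.0364 to 0.0585 for Slc2a3.

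With the longest transcript as gene length, shares were 36.8% (0 h) and 34.3% (48 h) for Slc2a3, 65.3%, 57.5% and 53.2% (0 h, 24 h and 48 h) for Hk2, 17.6% (24 h) for Pfkp and 36.8%, 14.5% and 10.6% for Pdk1, each with the same order of time points. The cause of these changes was not tested. Hk3 and Pgam2, at most 2.99 CPM in a library, had the widest standard errors of the 34 genes in each comparison (0.28 to 0.40), and no limit of detection was set for them.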
